A study of Mus musculus with 6 samples.

Results

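Lysosomal hydrolases and membrane proteins were examined as a set of 39 genes, picked by symbol as named enzymes, limiting-membrane proteins and regulators of the lysosome, among the 48897 genes of the deposited table. All 39 were found and all 39 passed the filter on low counts, with at least 282 counts in every library. Sinusoidal endothelial cells of the liver were taken from C57BL/6 mice, 7 to 8 weeks of age, on day 14 after surgery. That was either partial hepatectomy, in which a portion of the liver is cut away (libraries PHx 1, 3 and 4), or a sham operation (libraries Sham 1, 3 and 4). Both groups were purified with magnetic beads against CD146, the surface protein encoded by Mcam, so cells without it should have been depleted in both. The labels do not say that the 3 libraries of a group came from separate animals, so the spread behind each p-value may be technical. The sources used here give neither sex nor the share of liver removed.

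Lysosomes are acid compartments in which macromolecules brought in by endocytosis or autophagy are cut into reusable parts. Their proteases, glycosidases, sulfatases and lipases work at low pH, set by a proton pump in the limiting membrane, and that membrane is lined by heavily glycosylated proteins such as LAMP1 and LAMP2. Sinusoidal endothelial cells clear hyaluronan, collagen fragments, modified lipoproteins and other waste from the blood through scavenger receptors and degrade it in this compartment. Many lysosomal genes are known targets of the transcription factor TFEB and its relatives, which bind E-box-like DNA words named CLEAR elements.

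The promoters that hold such a word are shown because many lysosomal genes are known TFEB targets. Whether the 39 genes changed jointly was not tested. RefSeq promoters (GRCm38.p6, 250 bases before to 50 after each start) were matched by symbol for 36 of the 39 genes, all but Ctsb, Ctsh and Npc1. Both strands were covered, since each word searched reads the same on either strand. The full CLEAR word GTCACGTGAC was found in the promoters of 0 of the 36 genes, and in 0.370% of 27025 genes with a promoter. Its inner part TCACGTGA was found in 4 of the 36 (11.1%), namely Ctsa, Ctsd, Gla and Mcoln1, and in 1.12% of all genes. The E-box CACGTG, which lies inside both longer words, was found in 12 of the 36 (33.3%) and in 8.09% of all genes. A match is a run of letters and not evidence of binding. Only exact words in this window were searched, so the lack of a match does not show the lack of a CLEAR element. Below, capitals mark TCACGTGA in the 4 promoters, which run 5′ to 3′ on the gene's own strand: Ctsa at chr2:164833523-164833822 (plus strand), Ctsd at chr7:142387778-142388077 (minus), Gla at chrX:134600956-134601255 (minus) and Mcoln1 at chr8:3500269-3500568 (plus).
Ctsa: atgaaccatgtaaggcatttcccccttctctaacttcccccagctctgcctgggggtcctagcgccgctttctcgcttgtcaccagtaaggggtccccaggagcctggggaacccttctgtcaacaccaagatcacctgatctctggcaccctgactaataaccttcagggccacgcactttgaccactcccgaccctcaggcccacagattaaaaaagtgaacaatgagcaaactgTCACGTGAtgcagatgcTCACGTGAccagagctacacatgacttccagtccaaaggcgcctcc
Ctsd: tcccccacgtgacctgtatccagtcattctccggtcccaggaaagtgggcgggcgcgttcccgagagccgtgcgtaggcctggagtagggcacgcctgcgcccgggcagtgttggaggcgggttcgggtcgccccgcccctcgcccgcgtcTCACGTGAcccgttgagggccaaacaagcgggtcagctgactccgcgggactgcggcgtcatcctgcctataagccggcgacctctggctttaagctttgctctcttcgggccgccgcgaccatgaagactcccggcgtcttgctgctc
Gla: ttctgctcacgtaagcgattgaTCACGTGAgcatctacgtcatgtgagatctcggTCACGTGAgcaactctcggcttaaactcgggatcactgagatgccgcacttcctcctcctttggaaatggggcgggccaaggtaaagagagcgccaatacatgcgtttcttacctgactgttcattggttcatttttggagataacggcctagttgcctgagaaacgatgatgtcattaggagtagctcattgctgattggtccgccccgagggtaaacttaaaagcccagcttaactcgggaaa
Mcoln1: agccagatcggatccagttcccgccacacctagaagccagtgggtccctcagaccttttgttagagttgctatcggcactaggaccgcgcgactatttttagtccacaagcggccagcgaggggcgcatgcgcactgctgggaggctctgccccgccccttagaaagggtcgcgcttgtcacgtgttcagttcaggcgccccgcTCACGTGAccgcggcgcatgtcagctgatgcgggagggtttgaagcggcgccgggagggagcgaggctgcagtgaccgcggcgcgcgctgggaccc
The word began at bases -13 and 5 from the start in Ctsa, at -99 in Ctsd, at -228 and -195 in Gla, and at -46 in Mcoln1. The Ctsa promoter shown belongs to 1 of the starts listed for that gene. The other Ctsa promoter, at chr2:164832622-164832921, held none of the words searched. The other 8 genes with an E-box were Ctsf, Ctsl, Gaa, Glb1, Lamp1, Lgmn, Naglu and Sgsh.

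The libraries held between 38765116 and 51888481 counts, and a count of 0 would allow at most between 0.0578 and 0.0774 CPM (a library's counts scaled to a common total), for counting error only. Mcam was measured at 369 ± 37.3 CPM in PHx and 342 ± 53.3 CPM in Sham (SD, n = 3 each). Defining genes of sinusoidal endothelium were abundant in both groups: the scavenger receptor Stab2 had 3592, 5133 and 3460 CPM in PHx 1, 3 and 4, against 6468, 6492 and 5627 CPM in Sham 1, 3 and 4. Neutrophil markers set libraries apart within a group. Their summed level was 928, 44.4 and 5355 CPM in PHx 1, 3 and 4, against 519, 279 and 57.2 CPM in Sham 1, 3 and 4. The fit across all genes leaned on single libraries, as given with the other settings at the end.

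Levels per gene length showed which lysosomal genes dominated. RPKM, the authors' read count scaled by gene length and library total, averaged over 100 for 10 of the 39 genes and under 10 for 6. Psap, the precursor of the saposins that present sphingolipids to their hydrolases, was the highest in every library. It had 440.1, 489 and 397 RPKM in PHx 1, 3 and 4, against 538.5, 552 and 557 RPKM in Sham 1, 3 and 4. Next came Ctsd, the aspartic protease cathepsin D, with 325, 366 and 338 RPKM in PHx and 406, 392 and 417 RPKM in Sham. In both Psap and Ctsd every PHx library lay below every Sham library.

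**Figure D1:**
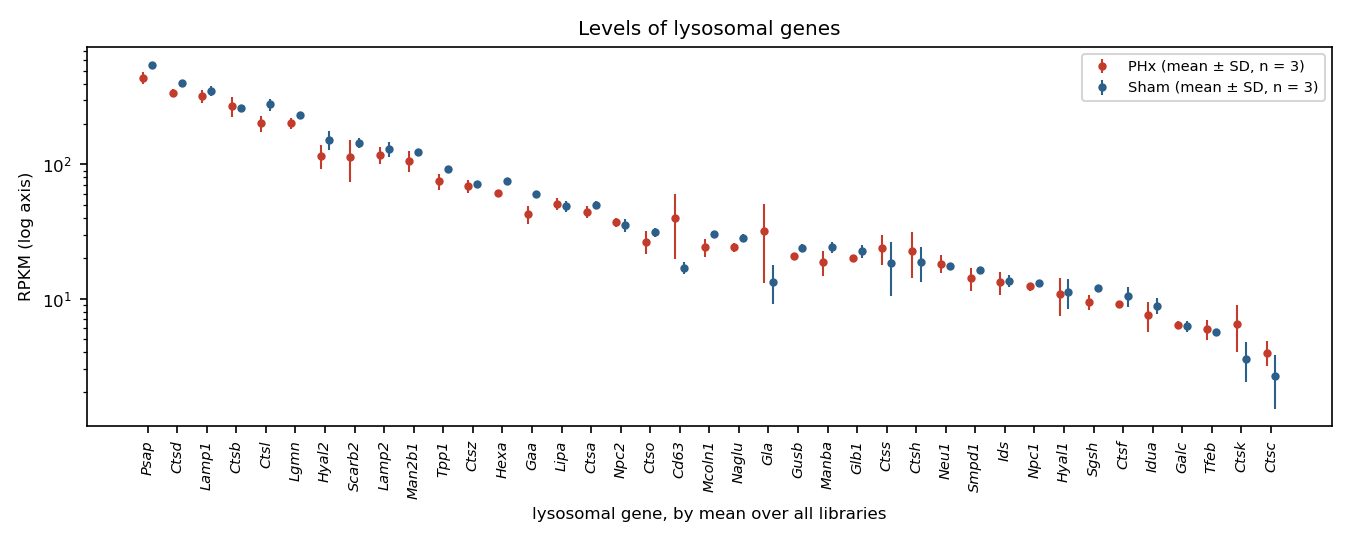
Mean RPKM ± SD (log axis) of the 39 lysosomal genes in 3 PHx and 3 Sham libraries, ordered by the mean over all 6. Psap, Ctsd, Lamp1, Ctsb and Ctsl are the highest, Ctsk and Ctsc the lowest, and the PHx bars of Gla and Cd63 are wide relative to their means.

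Lamp1, the main glycoprotein of the limiting membrane, had 316, 363 and 291 RPKM in PHx 1, 3 and 4, against 325, 356 and 383 RPKM in Sham, and the groups overlapped. Ctsb, the cysteine protease cathepsin B, had 243, 249 and 323 RPKM in PHx and 275, 249 and 269 RPKM in Sham, with PHx 4 the highest and PHx 1 the lowest of the 6. Ctsl, the cysteine protease cathepsin L, had 179, 233 and 194 RPKM in PHx and 268, 260 and 313 RPKM in Sham, without overlap. At the low end stood Ctsc with 3.95 ± 0.84 RPKM in PHx and 2.65 ± 1.13 RPKM in Sham, Ctsk with 6.51 ± 2.50 RPKM in PHx and 3.56 ± 1.16 RPKM in Sham, and Tfeb with 5.90 ± 1.005 RPKM in PHx and 5.59 ± 0.21 RPKM in Sham (SD, n = 3 each). The lowest genes thus were a pair of proteases and the regulator.

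The comparison of PHx with Sham asked whether the degradative machinery of these cells differed on day 14. None of the 39 genes passed edgeR's quasi-likelihood test at an adjusted p under 0.05 over all genes, where 0.846% of the 19033 tested genes were called higher and 0.0158% lower. The smallest adjusted p among the 39 in that edgeR test was 0.145, for Gaa. At an unadjusted p under 0.05 there were 11 of 39 lower (28.2%, against 4.73% of all tested genes) and 1 of 39 higher (2.56%, against 7.93%). The 11 became 6 without PHx 1 (5.71% of all tested genes), 7 without PHx 4 (3.38%), 7 without Sham 3 (2.43%), and 5 without PHx 4 and Sham 4 (3.20%). DESeq2 called 1 lower (Gaa) and 1 higher (Cd63), with 0.641% of its genes lower and 3.78% higher. Limma-voom called 0 of the 39, with 0.021% of all tested genes lower and 0.694% higher.

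In CPM, scaled between libraries, the differences were small and mostly in one direction. The log2 fold change (PHx over Sham) was negative in 28 of the 39 genes (71.8%), as in 47% of all tested genes, and the median was -0.21, beside 0.03 over all tested genes. 33 of the 39 lay within 0.5 of 0, while the standard errors (SE) ran between 0.10 and 0.54. In 13 genes (33.3%) all PHx libraries lay below all Sham libraries, as in 9.96% of tested genes, and in 1 (Cd63) all lay above, as in 10.6%. The genes share cells and libraries and are not independent, so these shares are descriptions. Without PHx 4 the median was -0.13, the largest shift that leaving out a single library gave. In that case 13 genes lay below, beside 13.2% of all tested genes. Leaving out 1 library at a time, between 28 and 33 genes were negative and between 13 and 22 lay below all Sham libraries. The share of all tested genes below then ran between 12.9% and 18.0%, and the 22, without PHx 3, stood beside 16.1%.

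**Figure D2:**
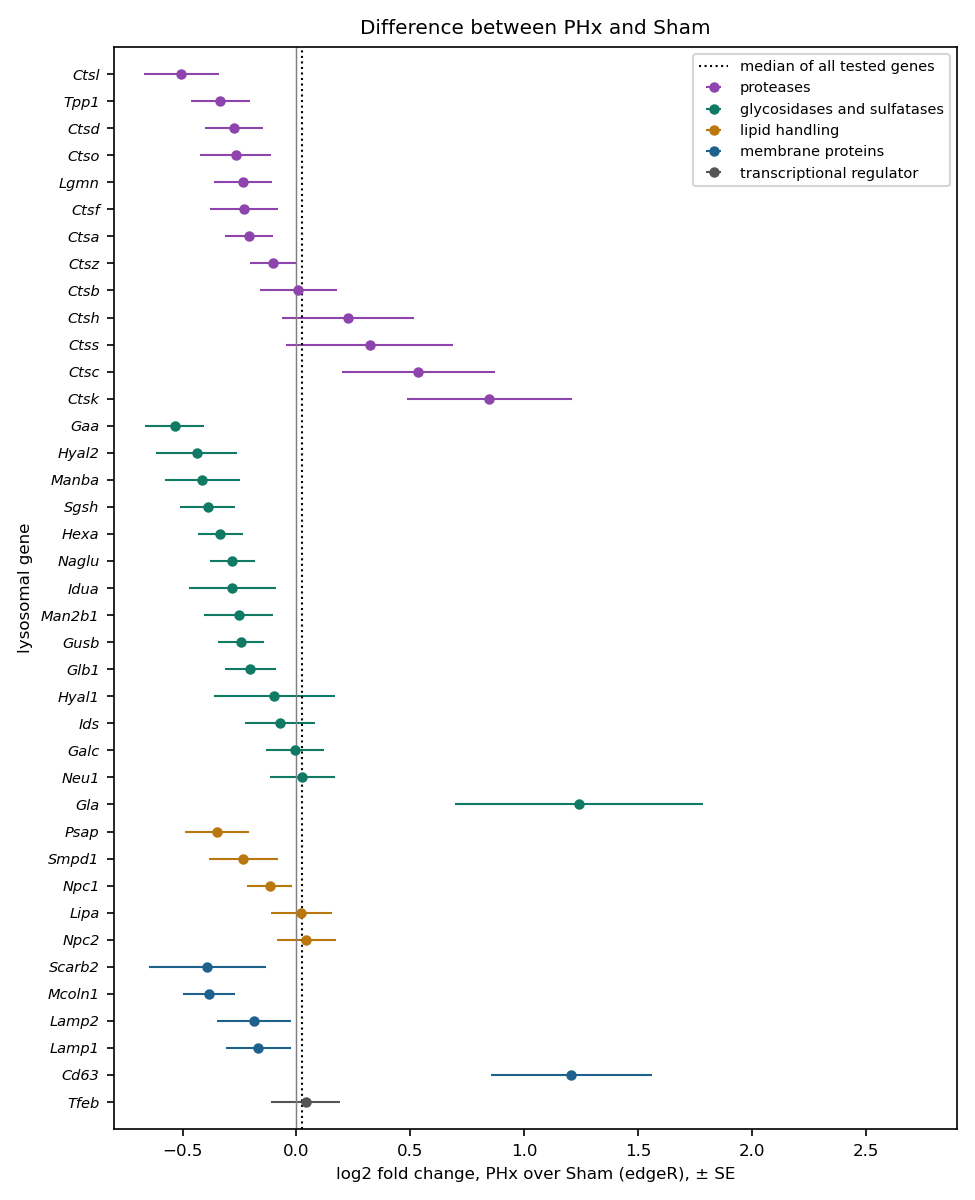
Log2 fold change, PHx over Sham, with SE from edgeR for the 39 lysosomal genes, grouped by role. The dotted line is the median of all 19033 tested genes (0.03), most genes lie left of it, and Gla (1.24), Cd63 (1.21) and Ctsk (0.85) lie farthest right.

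The 3 PHx libraries did not depart to the same degree. The median difference of the 39 genes from the Sham mean, in log2 CPM, was -0.24 in PHx 1, -0.08 in PHx 3 and -0.27 in PHx 4, while the Sham libraries lay at 0.02, -0.02 and 0.05. Among the PHx libraries PHx 3 had the highest value for 23 of the 39 genes (59.0%, against 30.8% of all tested genes), and PHx 4 the lowest for 18 (46.2%, against 36.5%). Together the 39 genes took 0.904%, 0.991% and 0.887% of the counts in PHx 1, 3 and 4, against 1.04%, 1.05% and 1.09% in Sham 1, 3 and 4. PHx 3 was thus nearest to the Sham libraries but still below them.

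**Figure D3:**
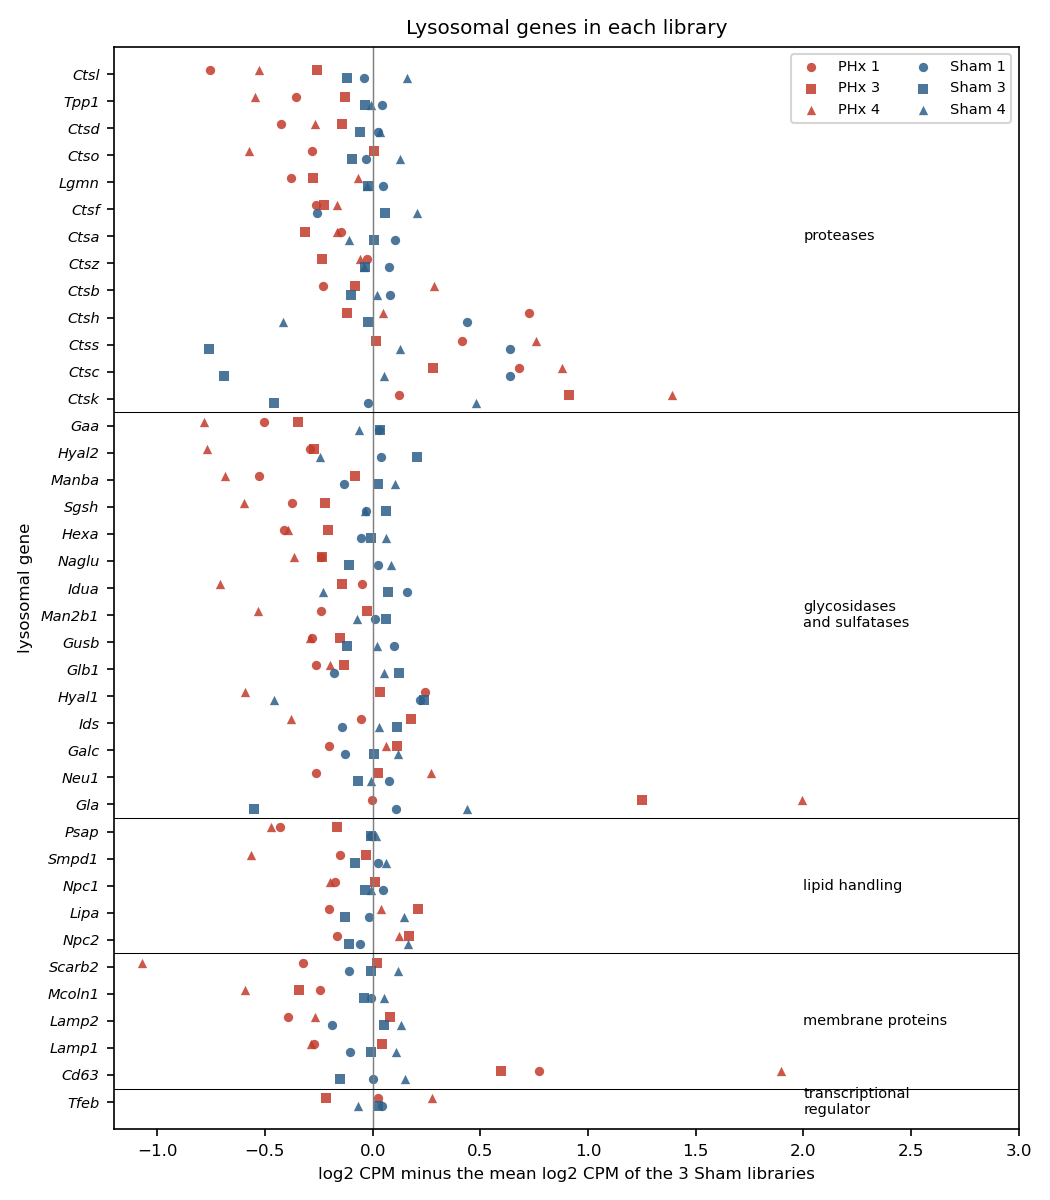
Log2 CPM of each lysosomal gene in each library minus the mean of the 3 Sham libraries. In 6 of the 15 glycosidases and sulfatases all PHx libraries (red) lie left of all Sham libraries (blue), while Gla, Cd63 and Ctsk reach far to the right in PHx 4.

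The sums of cell type markers also differed between libraries, without a pattern common to all lists. The 15 sinusoidal endothelial markers summed to 28343, 36759 and 23496 CPM in PHx 1, 3 and 4, against 44798, 44744 and 42741 CPM in Sham 1, 3 and 4, so PHx 3 was again nearest to Sham. None of the 15 passed in edgeR. At an unadjusted p under 0.05 10 were lower and 0 higher, beside 4.73% and 7.93% of all tested genes. The 10 became 5 without PHx 1 (5.71% of all tested genes), 6 without Sham 1 (2.99%), 6 without Sham 3 (2.43%) and 3 without PHx 4 and Sham 4 (3.20%). DESeq2 called 6 lower (beside 0.641% of its genes) and limma-voom called 0. The median log2 fold change of the 15 was -0.56, and -0.39 without PHx 4 and Sham 4. The 18 stellate cell and fibroblast markers summed to 7648, 8951 and 8710 CPM in PHx, against 3929, 3224 and 2936 CPM in Sham. EdgeR called 11 of the 18 higher, beside 0.846% of all tested genes, and their median log2 fold change was 1.52. The 11 calls became 6 without PHx 1, 7 without PHx 3, 3 without Sham 1 and 2 without Sham 3. They became 0 without Sham 4 and 2 with the replicate block. Over all tested genes the higher calls in those fits, in that order, were 58, 82, 34, 6, 0 and 14, beside 161 in the main fit. Without PHx 4 and Sham 4 there were 3 calls (24 over all tested genes), and the median was 1.24. With 1 library left out, 15 to 17 of the 18 were higher at an unadjusted p under 0.05, and the median was 1.36 to 1.52. Over all genes 1067 to 1961 were higher at that p, with 19771 to 20124 tested. No marker of the endothelial list or the stellate and fibroblast list was at 0. Of 9 mesothelial markers edgeR called 2 higher and DESeq2 6 (beside 0.846% and 3.78% of their tested genes), with a median log2 fold change of 2.23. Hepatocyte markers, T, NK and B cell markers and red cell markers had medians of -0.42, -0.13 and 1.41. EdgeR called 0 in these lists, and DESeq2 called 2 of the 5 tested red cell markers higher (beside 3.78% of its genes). In bulk RNA, fewer cells of a type and less RNA per cell cannot be told apart, and the part of the mix of cells in the lysosomal values was not tested.

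**Figure D4:**
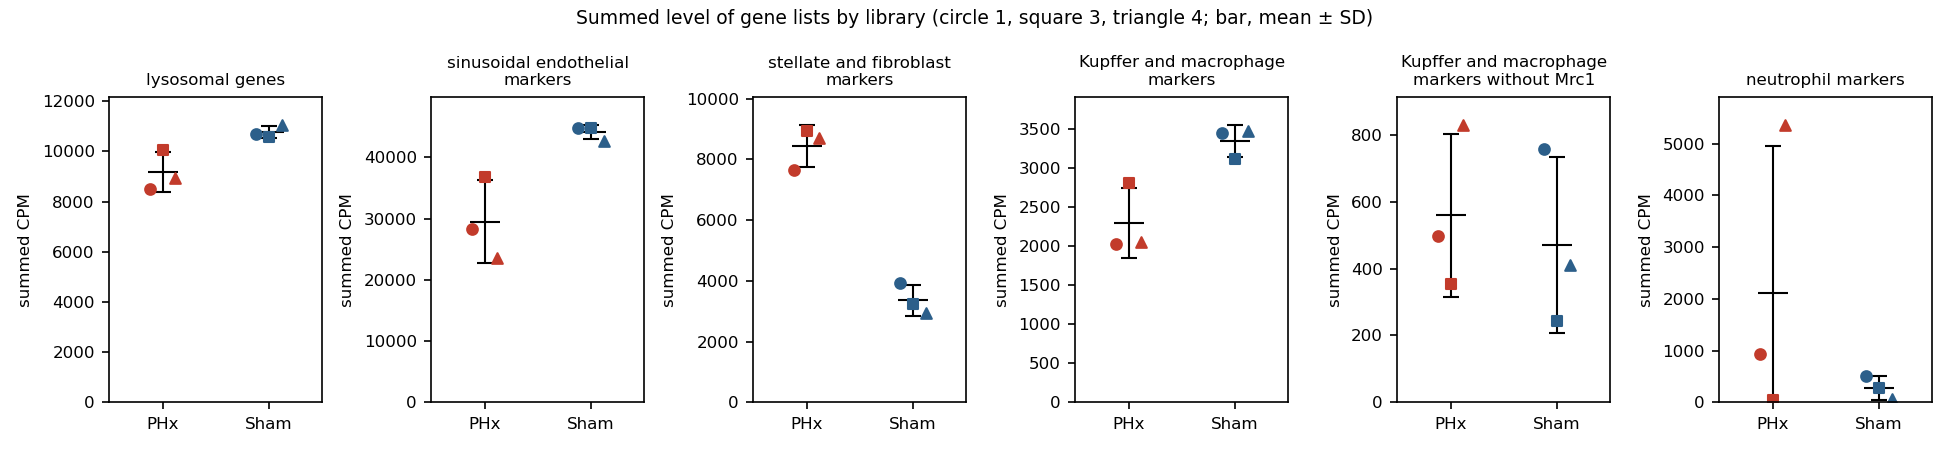
Summed CPM per library of the 39 lysosomal genes and of 5 lists of cell type markers, with mean ± SD of 3 libraries (an error bar reaching below 0 is cut there). Lysosomal and sinusoidal endothelial sums lie lower in every PHx library than in every Sham library, as do Kupffer cell and macrophage sums, which overlap between groups once Mrc1 is left out. Stellate and fibroblast sums lie higher in every PHx library, and neutrophil sums overlap.

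Glycosidases and sulfatases, which take sugars and sulfate groups off glycoproteins, glycolipids and glycosaminoglycans, had a median log2 fold change of -0.25, the lowest of the role groups. Of these 15 genes, 0 passed in edgeR and limma-voom, 13 had a negative log2 fold change, 7 were lower at an unadjusted p under 0.05 (4.73% of all tested genes were), and 6 lay below all Sham libraries (9.96% of all tested genes did). Gaa, the acid alpha-glucosidase that breaks down glycogen (chromosome 11, 119267963 to 119285458, mm10), had 153, 171 and 126 CPM in PHx 1, 3 and 4, against 223, 223 and 208 CPM in Sham 1, 3 and 4. Its groups did not overlap, and PHx 4 was the lowest. The log2 fold change was -0.53 ± 0.13 (SE), with an adjusted p of 0.145 in edgeR and 0.0191 in DESeq2. Hexa, the alpha subunit of beta-hexosaminidase, which trims gangliosides, had 119, 136 and 120 CPM in PHx, against 152, 157 and 164 CPM in Sham, with a log2 fold change of -0.33 ± 0.10 (edgeR adjusted p = 0.236).

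Enzymes that degrade glycosaminoglycans, the sugar chains that sinusoidal cells take up, spread over the range. Sgsh, a heparan sulfate sulfatase (chromosome 11, 119343489 to 119355510), had 40.6, 45.2 and 34.8 CPM in PHx 1, 3 and 4, against 51.6, 55.1 and 51.4 CPM in Sham, without overlap (-0.39 ± 0.12). Naglu, which removes N-acetylglucosamine from heparan sulfate, had 60.4, 60.6 and 55.4 CPM in PHx, against 72.8, 66.2 and 75.7 CPM in Sham (-0.28 ± 0.10). Both thus lay below Sham by a small margin. Gusb, the beta-glucuronidase, had 53.7, 58.6 and 53.3 CPM in PHx, against 69.7, 60.1 and 66.0 CPM in Sham (-0.24 ± 0.10). Hyal2, a hyaluronidase anchored to membranes, had 289, 293 and 207 CPM in PHx, against 363, 408 and 298 CPM in Sham (-0.44 ± 0.18), with PHx 3 next to Sham 4. For Sgsh, Naglu, Gusb and Hyal2 the edgeR adjusted p was 0.252, 0.309, 0.384 and 0.374. Other enzymes acting on the same chains overlapped between groups, with log2 fold changes of -0.28 for Idua, the alpha-iduronidase, -0.07 for Ids, the iduronate sulfatase, and -0.10 for the hyaluronidase Hyal1. Hyal2 and Hyal1 lie 4.17 kb apart on chromosome 9, on the same strand, and Hyal1 had SD of 6.43 CPM in PHx and 6.19 CPM in Sham around means of 23.1 and 24.7 CPM.

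Manba, the beta-mannosidase, had 66.6, 90.6 and 59.7 CPM in PHx 1, 3 and 4, against 87.7, 97.7 and 103 CPM in Sham, and only PHx 3 reached into the Sham range (-0.41 ± 0.16, edgeR adjusted p = 0.364). Man2b1, the alpha-mannosidase, and Glb1, the beta-galactosidase, had log2 fold changes of -0.25 and -0.20, with overlap. The sialidase Neu1 (0.03) and Galc, which degrades galactosylceramide (-0.01), differed by less than their SE of 0.14 and 0.13.

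Gla, the alpha-galactosidase that degrades globotriaosylceramide (chromosome X, 134588169 to 134601005), stood apart from the other glycosidases. It had 39.6, 94.3 and 158 CPM in PHx 1, 3 and 4, against 42.8, 27.1 and 53.7 CPM in Sham 1, 3 and 4. PHx 3 and PHx 4 lay above all Sham libraries, and PHx 1 among them. The log2 fold change of 1.24 ± 0.54 had an adjusted p of 0.422 in edgeR and 0.0824 in DESeq2, and was 0.70 without PHx 4. Its promoter, printed above, holds the CLEAR part 2 times, as does the one printed for Ctsa, a gene whose PHx values lay on the other side of Sham.

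Among the proteases, Ctsl and Ctsd had lower values after PHx, while 4 scarcer cathepsins had higher but widely spread ones. Of these 13 genes 0 passed in edgeR, limma-voom or DESeq2, 8 had a negative log2 fold change, 2 were lower at an unadjusted p under 0.05 (beside 4.73% of all tested genes), 5 lay below all Sham libraries (beside 9.96%), and the median was -0.21. Ctsl (chromosome 13, 64361890 to 64370748) had 596, 841 and 697 CPM in PHx 1, 3 and 4, against 978, 928 and 1124 CPM in Sham 1, 3 and 4. All PHx libraries were lower, with PHx 1 the lowest, and the log2 fold change was -0.50 ± 0.17 (edgeR adjusted p = 0.281). Tpp1, which removes tripeptides from the ends of proteins, had 274, 321 and 240 CPM in PHx, against 361.5, 342 and 349 CPM in Sham (-0.33 ± 0.13, edgeR adjusted p = 0.358).

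Ctsd lay below Sham in each PHx library, at 596, 726 and 667 CPM in PHx 1, 3 and 4, against 816, 769 and 823 CPM in Sham (-0.28 ± 0.13, edgeR adjusted p = 0.418). Lgmn, the asparaginyl endopeptidase legumain that processes several cathepsins, had 526, 564 and 652 CPM in PHx, against 708, 673 and 671 CPM in Sham (-0.24 ± 0.13). PHx 4 was its highest PHx library, next to Sham 4. Ctsa, a carboxypeptidase that stabilises the beta-galactosidase and the sialidase, had 166, 148 and 163 CPM in PHx, against 197, 184 and 170 CPM in Sham (-0.21 ± 0.11). In Lgmn and Ctsa the nearest PHx and Sham libraries differed by less than the SD of either group. Ctso, Ctsf and Ctsz overlapped between groups, with log2 fold changes of -0.27, -0.23 and -0.10.

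The 4 scarcer cysteine proteases with positive log2 fold changes were Ctsk, Ctss, Ctsc and Ctsh, whose libraries were widely spread. Ctsk, cathepsin K, a collagen-degrading protease known from osteoclasts and also made by fibroblasts, had 8.25, 14.3 and 19.9 CPM in PHx 1, 3 and 4, against 7.47, 5.51 and 10.6 CPM in Sham 1, 3 and 4 (0.85 ± 0.36, edgeR adjusted p = 0.397). PHx 1 lay within the Sham range, and the log2 fold change was 0.52 without PHx 4. Ctss, the cathepsin that trims the invariant chain in antigen-presenting cells, had 33.6, 25.4 and 42.7 CPM in PHx, against 39.1, 14.8 and 27.5 CPM in Sham (0.32 ± 0.37). Ctsc, which activates the granule proteases of leukocytes, had 44.8, 34.0 and 51.5 CPM in PHx, against 43.6, 17.3 and 29.0 CPM in Sham (0.54 ± 0.34). Sham 3 was the lowest of the 6 libraries for both, and without it the log2 fold changes were -0.0056 for Ctss and 0.23 for Ctsc. Ctsh, an aminopeptidase, had a log2 fold change of 0.23 ± 0.29, with -0.081 without PHx 1 and 0.0036 without Sham 4.

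Leukocyte markers also varied between libraries. The macrophage marker Cd68 had 24.5, 28.6 and 39.6 CPM in PHx 1, 3 and 4, against 45.3, 10.8 and 31.7 CPM in Sham 1, 3 and 4, and was lowest in Sham 3, as Ctss and Ctsc were. Clec4f, the lectin that defines Kupffer cells, had 28.9, 25.2 and 3.52 CPM in PHx, against 109.9, 25.4 and 59.2 CPM in Sham. Of the 15 Kupffer cell and macrophage markers 0 passed in edgeR, DESeq2 or limma-voom, and none was at 0. Their median log2 fold change was -0.54, with 10 negative and 5 positive. At an unadjusted p under 0.05 1 was higher (Lyz2) and 1 lower (Mrc1), beside 7.93% and 4.73% of all tested genes. The 15 summed to 2030, 2813 and 2054 CPM in PHx, against 3458, 3120 and 3479 CPM in Sham, lower in every PHx library. Left, in a list made after the data were seen, without Mrc1, which sinusoidal endothelium also expresses (1225 to 2460 CPM in PHx and 2699 to 3069 CPM in Sham), they summed to 496, 353 and 829 CPM in PHx, against 758, 244 and 409 CPM in Sham. Monocyte and dendritic cell markers summed to 577, 246 and 577 CPM in PHx, against 396, 218 and 258 CPM in Sham, with 0 of 15 passing in edgeR or limma-voom. All 15 had a positive log2 fold change (as had 10083 of all 19033 tested genes), with a median of 0.83. DESeq2 called 2 higher (beside 3.78% of its genes), and 4 were higher at an unadjusted p under 0.05 (beside 7.93% of all tested genes). The part of these cells in the protease values was not tested. Ctsk and Ctss are neighbours, 17.4 kb apart on chromosome 3 and on the same strand.

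Among membrane proteins, Cd63 had higher and Mcoln1 lower values in every PHx library than in any Sham library. Of the 5 genes 0 passed in edgeR and limma-voom, 4 had a negative log2 fold change, and the median was -0.19. Cd63, a tetraspanin of late endosomes, lysosomes and secretory granules (chromosome 10, 128908919 to 128912822), had 35.4, 31.4 and 77.4 CPM in PHx 1, 3 and 4, against 20.8, 18.7 and 23.1 CPM in Sham 1, 3 and 4. It was the gene of the set with every PHx library above every Sham library. The log2 fold change was 1.21 ± 0.35, with an adjusted p of 0.252 in edgeR and 0.0126 in DESeq2, and 0.68 without PHx 4. Neutrophil markers, whose sums are given above, were highest in PHx 4, the library with the highest Cd63 value, and lowest in PHx 3. None of the 14 tested neutrophil markers passed in edgeR, DESeq2 or limma-voom. All 14 had a positive log2 fold change (as had 10083 of all 19033 tested genes), with a median of 2.97. Their median difference from the Sham mean, in log2 CPM, was 2.30, -1.68 and 4.83 in PHx 1, 3 and 4. At an unadjusted p under 0.05 2 were higher (Mpo and Prtn3) and 0 lower, beside 7.93% and 4.73% of all tested genes. Of the 15 listed Ctsg alone was at 0 in any library (4 of the 6). The part of neutrophils in the Cd63 values was not tested.

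Mcoln1, the lysosomal calcium channel TRPML1 (chromosome 8, 3500519 to 3515232), had 52.4, 49.0 and 41.2 CPM in PHx 1, 3 and 4, against 61.6, 60.2 and 64.3 CPM in Sham 1, 3 and 4. The groups were separate, with a log2 fold change of -0.38 ± 0.12 (edgeR adjusted p = 0.236). Scarb2, the receptor LIMP-2 that carries glucocerebrosidase to lysosomes, had 552, 701 and 329 CPM in PHx, against 641, 687 and 748 CPM in Sham (-0.39 ± 0.26). Its low mean in PHx rested on PHx 4, without which the log2 fold change was -0.14. Lamp1 and Lamp2 had log2 fold changes of -0.17 ± 0.14 and -0.19 ± 0.16, with overlap.

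**Figure D5:**
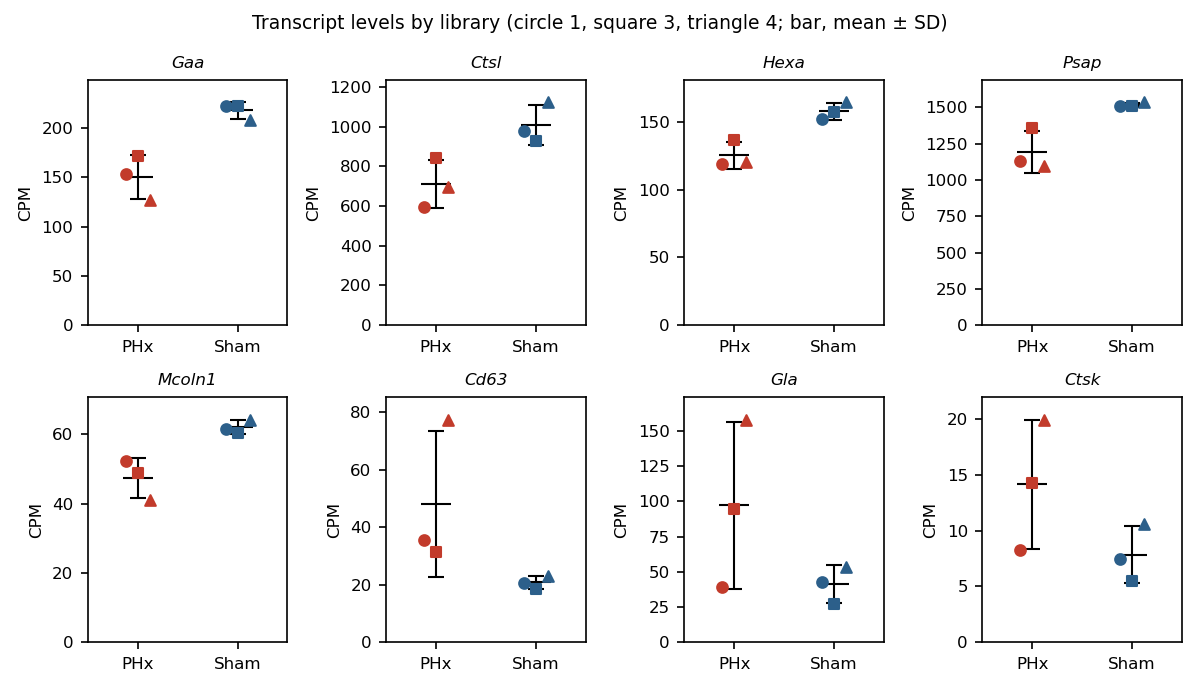
CPM per library of 8 lysosomal genes with mean ± SD of 3 libraries, PHx at the left of each panel. Gaa, Ctsl, Hexa, Psap and Mcoln1 are lower in every PHx library than in any Sham library, Cd63 is higher in each, and Gla and Ctsk overlap through PHx 1.

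In the lipid group Psap had the log2 fold change farthest from 0. It had 1129, 1357 and 1095 CPM in PHx 1, 3 and 4, against 1511, 1512 and 1536 CPM in Sham 1, 3 and 4 (chromosome 10, 60277628 to 60302600). The Sham libraries were close together, with an SD of 13.9 CPM beside 142 CPM in PHx, and the log2 fold change was -0.35 ± 0.14 (edgeR adjusted p = 0.370). The other 4 overlapped between groups. Smpd1, the acid sphingomyelinase, and Npc1, a cholesterol exporter of the limiting membrane, had log2 fold changes of -0.23 ± 0.15 and -0.12 ± 0.10. Npc2, the soluble partner of Npc1, and Lipa, the acid lipase, stood at 0.04 ± 0.13 and 0.02 ± 0.13. Of these 5 genes 0 passed in edgeR, DESeq2 or limma-voom, and 1 was lower at an unadjusted p under 0.05 (beside 4.73% of all tested genes).

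The regulator itself did not separate the groups. Tfeb (chromosome 17, 47737037 to 47792416) had 19.3, 16.4 and 22.98 CPM in PHx 1, 3 and 4, against 19.6, 19.4 and 18.1 CPM in Sham 1, 3 and 4, with a log2 fold change of 0.04 ± 0.15. The PHx libraries held both the highest and the lowest value, and the RNA level does not report the location of the protein, through which TFEB is mainly controlled. Its relatives Tfe3, Tfec and Mitf had log2 fold changes of -0.22 ± 0.11, 0.10 ± 0.13 and 0.23 ± 0.24. Of the 4 genes with the CLEAR part in the promoter, Ctsa, Ctsd and Mcoln1 lay below Sham in all PHx libraries and Gla did not. In the whole lysosomal set 33.3% of the genes lay below in this way, as did 9.96% of all tested genes. A group of 4 genes picked by an exact word is too small to describe TFEB targets, whose joint change was not tested.

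Other genes of the lysosomal pathway gave 0 calls in edgeR and in limma-voom among 144 tested in 7 lists. The counts at an unadjusted p under 0.05 in these lists stand beside 4.73% of all tested genes lower and 7.93% higher. Of 38 further enzymes and cofactors 27 had a negative log2 fold change, with a median of -0.14, and at an unadjusted p under 0.05 5 were lower (Plbd2, Man2b2, Dnase2a, Scpep1 and Pld3) and 1 higher (Prcp). Plbd2, a phospholipase B-like protein, had 124, 130 and 106 CPM in PHx 1, 3 and 4, against 162, 155 and 159 CPM in Sham (-0.40 ± 0.11). Prcp, a carboxypeptidase, ran the other way, with 111, 102 and 137 CPM in PHx, against 84.0, 74.6 and 82.1 CPM in Sham (0.54 ± 0.13, adjusted p of 0.143 in edgeR and 0.0273 in DESeq2). Of 27 other membrane proteins and transporters 18 were negative, with a median of -0.11 and 4 lower and 0 higher at an unadjusted p under 0.05, the ion channels Tmem175 (-0.47 ± 0.13) and Tpcn1 (-0.34), the amino acid transporter Slc36a1 (-0.39) and the cystine exporter Ctns (-0.29 ± 0.10). DESeq2 called 0 of those 27.

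The proton pump had a median close to that of all genes. Of 20 tested V-ATPase subunits and accessory proteins 12 were negative, and the median was -0.02. At an unadjusted p under 0.05 2 were lower (beside 4.73% of all tested genes), Atp6v0a1 (-0.28 ± 0.10) and Atp6ap1 (-0.29 ± 0.12). Of 12 genes that deliver enzymes to the lysosome 9 were negative, with a median of -0.16 and 1 at an unadjusted p under 0.05. That was Nagpa, which uncovers the mannose 6-phosphate tag, with 47.6, 54.6 and 40.4 CPM in PHx 1, 3 and 4, against 62.0, 67.4 and 67.2 CPM in Sham (-0.46 ± 0.13). The 2 mannose 6-phosphate receptors, Igf2r and M6pr, had log2 fold changes of 0.12 ± 0.14 and 0.02 ± 0.10. Of 4 tested protease inhibitors 2 were negative, and cystatins Cst3 and Cstb stood at 0.22 ± 0.15 and 0.21 ± 0.15. DESeq2 called 0 in these 3 lists.

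Of 18 genes for TFEB relatives and the control of the growth kinase mTORC1 at the lysosome 10 were negative, with a median of -0.02. At an unadjusted p under 0.05 4 were lower (Flcn, Lamtor1, Mtor and Rptor) and 1 higher, beside 4.73% and 7.93% of all tested genes. The higher gene was Rragd, which encodes a Rag GTPase that recruits mTORC1 and is a known TFEB-family target. It had 19.7, 17.7 and 22.9 CPM in PHx 1, 3 and 4, against 10.3, 12.3 and 8.76 CPM in Sham 1, 3 and 4. Every PHx library was higher, the log2 fold change was 0.94 ± 0.18, and the adjusted p was 0.0663 in edgeR and 0.000444 in DESeq2. Of 25 autophagy genes 13 were negative, with a median of -0.01, 2 lower and 1 higher (Map1lc3a, 0.41) at an unadjusted p under 0.05 and 0 called by DESeq2. The 2 lower were Rubcn (-0.34 ± 0.10), an inhibitor of autophagosome maturation, and Vps11 (-0.29 ± 0.09), a tethering subunit. The medians of the pump, mTORC1 and autophagy lists thus lay closer to the 0.03 of all tested genes than that of the 39 genes, a difference that was not tested. The counts below all Sham libraries differed less for the mTORC1 list. There 6 of 18 genes lay below, beside 13 of the 39 genes and 9.96% of all tested genes. In the pump and autophagy lists 2 of 20 and 3 of 25 did.

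For 15 of the 39 genes the deposited position overlaps another gene. Glb1 shares its strand with Tmppe, and the overlapping partners of the other 14 are on the other strand, such as Pltp and Neurl2 for Ctsa, Fdft1 for Ctsb and Slc26a1 for Idua. The use of strand in counting was not given in the sources used here, so reads of these pairs cannot be told apart. Of the 14 genes without overlap between groups of libraries, Ctsa, Ctsl, Hexa, Hyal2 and Sgsh have such a partner, while Gaa, Gusb, Naglu, Ctsd, Lgmn, Tpp1, Psap, Mcoln1 and Cd63 do not.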

How the data were processed

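RNA was measured in 6 libraries, 3 PHx and 3 Sham. The table deposited by the authors holds counts and RPKM for every gene and library, beside positions and gene length in base pairs. Per the submitters' processing notes, bcl2fastq, TopHat2 (2.0.13) and mm10 (GRCm38) were used; the counting program is not given in the sources used here. RPKM as deposited by the authors equalled count per length and summed counts in 100% of values (relative tolerance 1e-06). Counts per library ranged between 38765116 and 51888481. 27 names turned into dates were restored through Entrez numbers. No value column was without a sample.

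The counts were tested with edgeR 4.0.16 (R 4.3.3; TMM scaling, filterByExpr, robust quasi-likelihood F-test, group only, Benjamini-Hochberg over 19033 genes); the method was tested on simulated data. There it called 22% of 100 genes changed by a log2 of 1 and 63% of 100 changed by 2, with 7 false among 92 calls. Smaller changes were not simulated, so the absence of a call does not show the absence of a small difference. SE is the size of the log2 fold change over the root of its F value. CPM are TMM-scaled, and differences of log2 CPM use a prior count of 2. DESeq2 1.42.0, limma 3.58.1, other scaling and filters, a replicate block and left-out libraries were alternatives. The members, lists and tests were chosen with earlier results of these data known. Values are given per library for members with an unadjusted p under 0.05 or no overlap between groups, for the 5 highest in RPKM, for Tfeb and Mcoln1, and, chosen after their values were seen, for Gla, Ctsk, Ctss, Ctsc and Scarb2; related lists name up to 4 genes with the smallest p and those of small counts, beside Tfe3, Tfec, Mitf, Igf2r and M6pr, which were chosen as relatives and receptors. The positions of 39 members matched RefSeq. A planned comparison of cathepsin protein sequences was not made here.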

Additional observations from a re-analysis of the deposited data

How the results depend on the processing

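Over all genes 161 were higher and 3 lower after PHx. DESeq2 gave 719 and 122. No low-count filter gave 359 and 30, and dropping both libraries numbered 4 gave 24 and 1; the cause was not tested. When 1 library at a time was dropped, the higher genes numbered 0 to 160 and the lower 0 to 9: dropping PHx 1 gave 58 and 4, PHx 3 gave 82 and 9, PHx 4 gave 160 and 6, Sham 1 gave 34 and 2, Sham 3 gave 6 and 1, and Sham 4 gave 0 and 0. With the replicate block the counts were 14 and 1, 0 and 0 among the lysosomal genes, whose median was -0.21. The deviations of libraries with the same number from their group means correlated at -0.09, -0.23 and 0.03. With 3 libraries in each group these correlations cannot settle whether same-numbered libraries were paired, and the labels state no pairing.

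Among the 39 lysosomal genes edgeR called 0 higher and 0 lower under every alternative run with it, and DESeq2 called 1 and 1. The median log2 fold change of -0.21 ran between -0.24 and -0.13 when each library was left out, the last without PHx 4. The count of negative genes, added after the data were seen, ran between 27 and 33 over all alternatives. The count lower at an unadjusted p under 0.05, 11, ran between 6 and 15 with 1 library left out. It was 6 without PHx 1 (5.71% of all tested genes), 7 without PHx 4 (3.38%), 7 without Sham 3 (2.43%) and 15 without PHx 3 (5.94%). It was 5 without both libraries numbered 4 (3.20%) and 6 with the filter of 5 CPM (5.09%). DESeq2 ended with a call for Cd63 (1.20), Gaa (-0.54), Prcp (0.53) and Rragd (0.94), and the fit with no filter called Rragd (0.91).

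The sign of the log2 fold change turned in the genes that follow. Ctsb was at -0.0080 with limma-voom, -0.024 with no filter, -0.0074 with the replicate block and -0.15 without PHx 4 and Sham 4. In that last fit Galc was at 0.019, Ids at 0.071, Neu1 at -0.12 and Tfeb at -0.13. With no filter Lipa was at -0.0077 and Neu1 at -0.0049, and Galc was at 0.035 with the filter of 5 CPM in 3 libraries. Leaving out each library gave -0.15 to 0.10 for Ctsb, -0.081 to 0.45 for Ctsh, -0.0056 to 0.66 for Ctss, -0.092 to 0.076 for Galc, -0.33 to 0.11 for Hyal1, -0.22 to 0.062 for Ids, -0.089 to 0.12 for Lipa, -0.11 to 0.14 for Neu1, -0.037 to 0.13 for Npc2 and -0.092 to 0.15 for Tfeb. At least 282 counts per library lay behind each value of the 39 genes.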
